A study of Mus musculus with 32 samples.

Results

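The 10 genes described here make and load MHC class I molecules or form the immunoproteasome, and they were taken by name from the 24885 genes of the deposited table. Counts of polyadenylated RNA were deposited for 32 libraries of mouse bone marrow-derived macrophages, 4 in each of 8 groups that cross genotype, M-CSF and LPS. The knockout cells (T2KO in the labels) came from Trem2–/– mice of the line that Turnbull and colleagues made, and the WT cells had an intact Trem2, the lipid-sensing receptor of macrophages and microglia. Both genotypes are labelled C57BL/6, and the age of the mice is not given in the sources used here. Cells of each genotype were kept overnight in medium labelled low M-CSF or normal M-CSF, a growth factor on which macrophages depend, and were sampled after 4 hours with LPS, the bacterial outer-membrane product, at 10 ng/ml or without it. The treatment notes name LCCM at 0.5% and at 10%, and reading low M-CSF as the 0.5% medium is an inference. These are macrophages grown in culture from marrow, they are not microglia, and the knockout mice lacked Trem2 in all cells. Nothing in the labels ties a group's libraries to separate animals or dishes, so each p measures the spread between these libraries. Members fall into the class I chains (H2-K1, H2-D1, H2-T23 and B2m), peptide transport and loading (Tap1, Tap2 and Tapbp) and the immunoproteasome (Psmb8, Psmb9 and Psmb10). All 10 were among the 11244 genes that passed the filter on low counts.

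MHC class I molecules carry fragments of proteins made inside the cell to its surface, where CD8 T cells and NK cells read them. The proteasome cuts the proteins, the TAP transporter made of Tap1 and Tap2 pumps the peptides into the endoplasmic reticulum, and tapasin (Tapbp) holds the empty class I heavy chain and its partner B2m beside TAP until a peptide fits. In immune and inflamed cells the catalytic subunits Psmb8, Psmb9 and Psmb10 take the places of Psmb5, Psmb6 and Psmb7 and change which peptides are made; interferons and NF-kB are known inducers of these genes, acting through factors such as IRF proteins and NLRC5 at their promoters.

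In the mm10 build, 8 of the 10 genes lie in the major histocompatibility complex on chromosome 17. Tapbp lies at chr17:33919478-33929290 and H2-K1 at chr17:33996012-34000619. Psmb9 (chr17:34182030-34187330), Tap1 (chr17:34187556-34197225), Psmb8 (chr17:34198195-34201454) and Tap2 (chr17:34204479-34216321) follow one another, with gaps of 225, 969 and 3024 bases between them. H2-D1 lies at chr17:35263094-35267497 and H2-T23 at chr17:36029977-36032701. B2m is on chromosome 2 (chr2:122147687-122153082) and Psmb10 on chromosome 8 (chr8:105935728-105938392). The deleted gene Trem2 is on chromosome 17 as well (chr17:48346401-48352276), 12.3 to 14.4 Mb from these 8 members.

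Promoter windows from RefSeq (build GRCm38.p6, 250 bases before to 50 after a gene's start) were found for 9 of the 10 members; Tap2 had none. Those of the 5 members that hold a match to any of the 3 motifs searched, and that of Tap1 as an example with none, are printed 5′ to 3′ on the gene's strand. Capitals mark every match, on both strands.
H2-K1 (chr17:34000284-34000583, minus strand): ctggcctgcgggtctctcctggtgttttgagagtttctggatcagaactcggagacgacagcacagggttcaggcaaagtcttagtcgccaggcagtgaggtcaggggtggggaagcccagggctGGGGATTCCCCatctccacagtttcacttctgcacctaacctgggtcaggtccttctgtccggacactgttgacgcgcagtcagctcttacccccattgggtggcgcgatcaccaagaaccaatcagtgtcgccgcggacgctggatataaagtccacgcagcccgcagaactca
H2-D1 (chr17:35262844-35263143, plus strand): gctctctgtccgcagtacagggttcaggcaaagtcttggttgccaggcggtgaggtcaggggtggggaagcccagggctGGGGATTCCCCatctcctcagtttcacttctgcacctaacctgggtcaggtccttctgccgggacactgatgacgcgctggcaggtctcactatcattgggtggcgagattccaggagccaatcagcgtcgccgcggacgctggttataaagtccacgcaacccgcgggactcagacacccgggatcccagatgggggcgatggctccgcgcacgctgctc
B2m (chr2:122147437-122147736, plus strand): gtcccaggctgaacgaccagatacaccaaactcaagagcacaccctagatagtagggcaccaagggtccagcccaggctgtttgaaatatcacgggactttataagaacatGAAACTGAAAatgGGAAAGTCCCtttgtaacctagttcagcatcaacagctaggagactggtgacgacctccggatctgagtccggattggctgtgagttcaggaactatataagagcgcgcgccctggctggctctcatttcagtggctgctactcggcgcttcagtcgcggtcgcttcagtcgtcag
H2-T23 (chr17:36032652-36032951, minus strand): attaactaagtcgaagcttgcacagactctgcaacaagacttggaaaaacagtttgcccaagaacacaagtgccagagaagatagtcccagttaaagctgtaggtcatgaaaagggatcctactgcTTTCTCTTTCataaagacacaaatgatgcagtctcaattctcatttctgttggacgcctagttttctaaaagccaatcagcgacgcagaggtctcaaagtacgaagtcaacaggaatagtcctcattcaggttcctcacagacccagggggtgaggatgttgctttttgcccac
Tap1 (chr17:34187306-34187605, plus strand): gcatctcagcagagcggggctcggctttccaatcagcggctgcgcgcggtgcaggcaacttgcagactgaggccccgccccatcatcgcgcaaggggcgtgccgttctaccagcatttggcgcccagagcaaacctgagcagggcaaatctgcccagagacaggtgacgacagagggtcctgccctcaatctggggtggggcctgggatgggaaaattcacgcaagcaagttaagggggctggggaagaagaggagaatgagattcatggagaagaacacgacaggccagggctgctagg
Psmb8 (chr17:34197945-34198244, plus strand): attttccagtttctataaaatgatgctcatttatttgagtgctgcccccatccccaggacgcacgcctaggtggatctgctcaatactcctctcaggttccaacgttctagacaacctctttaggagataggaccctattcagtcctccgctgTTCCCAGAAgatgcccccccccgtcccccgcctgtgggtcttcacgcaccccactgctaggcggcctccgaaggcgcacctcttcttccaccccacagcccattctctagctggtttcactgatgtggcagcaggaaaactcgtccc
The capitals in H2-K1 and H2-D1 are 2 overlapping matches to the NF-kB consensus, with the same letters in both genes. B2m holds an NF-kB match beside a match to the interferon-stimulated response element, searched as GAAANNGAAA. H2-T23 holds that element on the opposite strand, and Psmb8 holds a gamma-activated site, searched as TTCNNNGAA. The Tap1 window, which shares most of its bases with that of Psmb9 on the other strand, holds none of these letters, and neither do those of Tapbp, Psmb9 and Psmb10. Matches to the NF-kB consensus were in 3 of the 9 members' windows and in 8.46% of 32817 RefSeq windows, the response element in 2 of 9 and in 3.43%, and the gamma-activated site in 1 of 9 and in 8.29%. Only exact matches to the letters searched were marked. A match describes the letters and not binding, and a window without a match can still hold a site with other letters.

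Total counts ran from 3068863 to 15585423 per library (median 5596111). Levels are CPM, a gene's reads relative to its library's depth after TMM scaling, log2 fold changes are given ± SE, means ± SD (n = 4 per group), and p-values are those of the edgeR quasi-likelihood test, adjusted by Benjamini-Hochberg over all 11244 genes with a threshold of 0.05. Trem2 stood at 3.65 to 132 CPM over the 16 knockout libraries and at 194 to 517 CPM over the 16 WT libraries, and it was lower in knockout cells in all 4 conditions. What was left in knockout cells varied with condition. It averaged 6.01 CPM with LPS and 115 CPM without in low M-CSF, and 5.88 and 36.3 CPM in normal M-CSF. In most groups libraries 1 and 3, and likewise 2 and 4, resembled each other: a chi-square of their counts, divided by its degrees of freedom, was 4.17 to 39.2 (median 6.57), against 10.3 to 86.0 (median 30.5) between other libraries of a group. If such a pair is 1 sample, n is 2 per group, and results that then fail the test are named below as lost with libraries summed in pairs. The largest value within such pairs, 39.2, was that of library 1 of WT cells in normal M-CSF without LPS. Macrophage markers were high in every library, with a summed level of 4636 to 10561 CPM for all 8. Of 7 neutrophil markers in the table the sum was 50.1 to 376 CPM, those of 8 dendritic cell markers 0.0765 to 18.3 CPM and of 6 stromal and endothelial markers 0.746 to 22.2 CPM. Those of T, NK and B cells reached at most 9.99 CPM, with Ncr1 at 0 in all libraries. In bulk RNA, fewer cells of a type and less RNA per cell cannot be told apart.

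**Figure D1:**
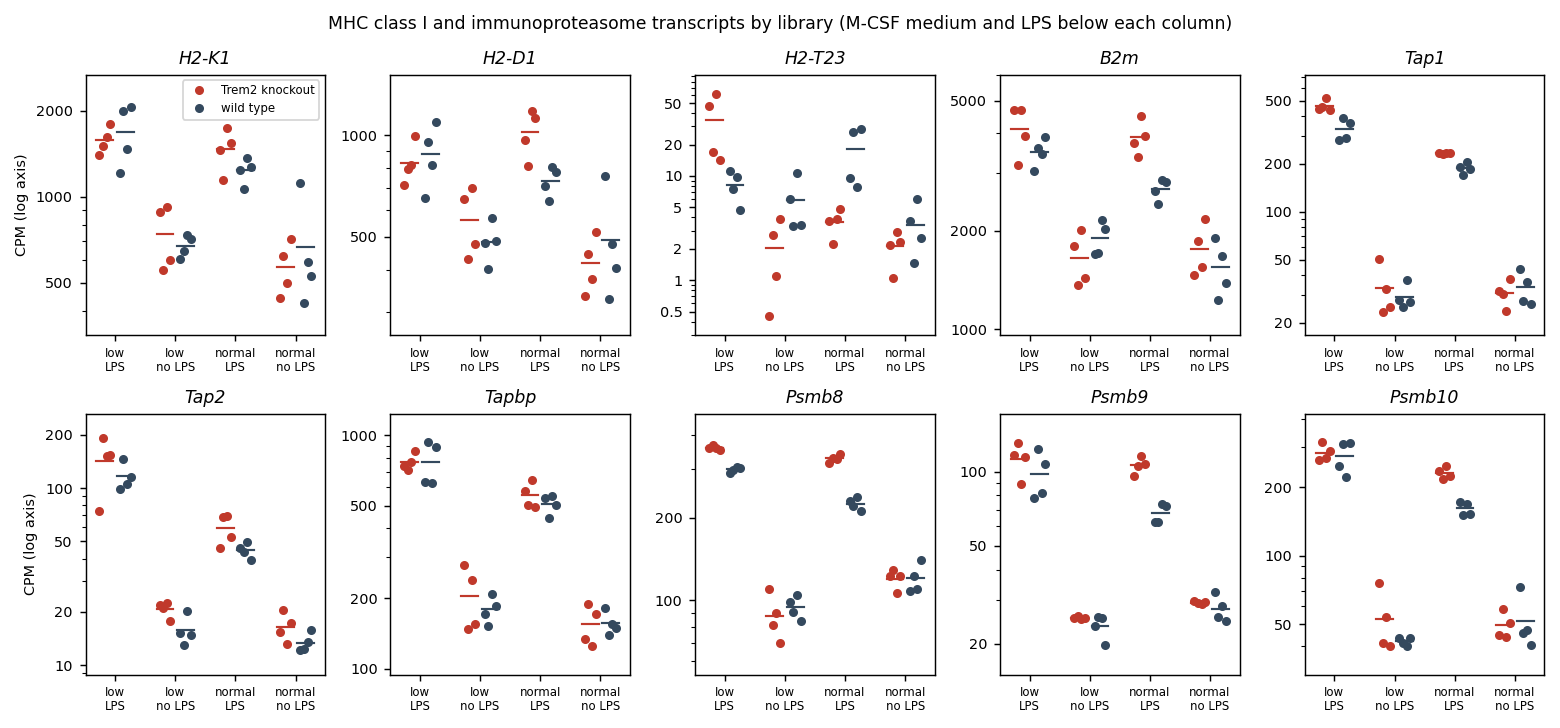
Levels of the 10 genes in every library (CPM scaled by TMM, log axis). Each point is 1 library and each bar a group mean (n = 4), with knockout groups in red left of WT groups in dark grey. The Tap1 points with LPS sit between 169 and 520.3 CPM, all above those without LPS, which reach 50.6 CPM.

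With LPS, transcripts of the class I chains, the peptide transporter, tapasin and the immunoproteasome were higher in both genotypes and both media. In knockout cells, all 10 genes rose in low M-CSF and 9 rose in normal M-CSF, where 26.5% and 20.9% of all genes tested rose. In WT cells, 9 genes rose in low and all 10 in normal M-CSF, beside 27% and 18.3% of all genes. H2-T23 was the gene that did not pass, in knockout cells in normal and in WT cells in low M-CSF. The median log2 change of the 10 was 2.09 and 1.65 in knockout cells in low and normal M-CSF, and 1.85 and 1.46 in WT cells, against -0.36, -0.05, -0.18 and -0.04 over all genes tested. By set, in knockout low, knockout normal, WT low and WT normal M-CSF, the median was 2.78, 1.85, 2.88 and 1.74 for transport and loading, 2.14, 1.85, 2.04 and 1.28 for the immunoproteasome, and 1.21, 1.21, 0.87 and 0.84 for the chains. Libraries with LPS and without did not overlap for 10 and 9 genes in knockout cells and for 9 and 8 genes in WT cells, while that held for 57.9%, 42.2%, 51.4% and 37.8% of all genes in either direction. Scaled by total counts alone, which moves the median log2 change of all genes to -1.30, -0.58, -0.94 and -0.47 in the same 4 comparisons, 7, 9, 7 and 7 members passed the test. Over all genes tested in knockout cells, 2979 genes were higher and 4611 lower (by total counts 1584 and 7746) in low M-CSF, and 2349 genes were higher and 2447 lower (by total counts 1300 and 5352) in normal M-CSF. In WT cells 3041 genes were higher and 3783 lower (by total counts 1589 and 6755) in low M-CSF, and 2053 genes were higher and 2008 lower (by total counts 1229 and 4484) in normal M-CSF. Several marker sums of other cells were higher with LPS too. Neutrophil marker sums in low M-CSF were 219 to 376 CPM with LPS against 144 to 207 CPM without in knockout cells, and 173 to 200.4 against 56.5 to 94.9 CPM in WT cells. In normal M-CSF they were 84.5 to 137 CPM with LPS against 51.3 to 58.3 CPM without in knockout cells, and 101 to 119 against 50.1 to 63.9 CPM in WT cells. Dendritic cell marker sums were 2.16 to 18.3 CPM with LPS and 0.0765 to 11.2 CPM without, and those of stromal and endothelial cells 3.98 to 22.2 and 0.746 to 4.95 CPM. The genes within the dendritic cell sums, and within the stromal and endothelial sums, did not move alike. Of the neutrophil markers 6 were tested, and their changes are not given gene by gene here, so which of them carried the neutrophil sums is not shown. Of the 2 dendritic cell markers tested, Ccr9 rose in all 4 comparisons, and Siglech passed in WT cells in normal M-CSF alone. Of the 2 stromal and endothelial markers tested, Pdgfrb rose in all 4, and Cdh5 passed in knockout cells in low M-CSF alone. The part of these cells in the LPS changes was not tested.

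Tap1, the subunit of the peptide transporter that pairs with Tap2, had the largest rise of the 10 genes in 3 of the 4 comparisons, and H2-T23 exceeded it in knockout cells in low M-CSF. In low M-CSF, knockout cells had 444, 453, 520.3 and 437 CPM of Tap1 with LPS, against 50.6, 23.4, 32.7 and 25.1 CPM without LPS. In normal M-CSF, knockout cells had 233, 232, 234 and 234 CPM with LPS, against 31.7, 30.2, 23.6 and 37.7 CPM without. The knockout libraries with LPS in normal M-CSF were nearly level with one another, and in both media all 4 stood far above those without LPS. In low M-CSF, WT cells had 284, 387, 292 and 363 CPM with LPS and 27.8, 25.0, 37.1 and 27.0 CPM without. In normal M-CSF, WT cells had 192, 169, 204 and 185 CPM with LPS and 43.6, 27.6, 36.3 and 26.3 CPM without. The WT libraries with and without LPS did not overlap either, and library 1 was the highest of the WT group without LPS in normal M-CSF. The log2 change of Tap1 with LPS was 3.83 ± 0.21 (edgeR adjusted p = 3.61e-18) in knockout cells in low M-CSF, and 2.92 ± 0.20 (edgeR adjusted p = 6.84e-15) in normal M-CSF. In WT cells it was 3.50 ± 0.21 (edgeR adjusted p = 4.83e-17) in low M-CSF, and 2.48 ± 0.20 (edgeR adjusted p = 4.25e-13) in normal M-CSF, a 5.59-fold change.

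Tap2 rose by 2.78 ± 0.21 and 1.85 ± 0.21 on the log2 scale in knockout cells in low and normal M-CSF, and by 2.88 ± 0.22 and 1.74 ± 0.21 in WT cells (edgeR adjusted p at most 1.04e-08). Tapbp, which encodes tapasin, the bridge between TAP and the heavy chain, rose by 1.91 ± 0.19 and 1.84 ± 0.19 in knockout cells and by 2.10 ± 0.19 and 1.70 ± 0.19 in WT cells (edgeR adjusted p at most 1.04e-09). For both genes the libraries with LPS lay above those without in all 4 comparisons. Of the 6 other genes listed for peptide trimming and loading, 5 and 3 rose with LPS in knockout cells in low and normal M-CSF, and 4 and 3 in WT cells; none fell. Tapbpl, the tapasin relative that edits peptides, changed by 2.21, 1.09, 2.04 and 0.85 in the same order.

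The immunoproteasome genes rose in all 4 LPS comparisons, and Psmb10, which encodes the subunit that replaces Psmb7, had the largest change of the 3 in each. Knockout cells in low M-CSF had 262, 315, 268 and 287 CPM of Psmb10 with LPS, against 76.1, 41.3, 53.8 and 40.0 CPM without. Knockout cells in normal M-CSF had 236, 218, 246 and 223 CPM with LPS, against 44.8, 58.3, 44.0 and 50.4 CPM without. No library with LPS came near those without LPS in knockout cells. WT cells in low M-CSF had 248, 308, 221 and 314 CPM with LPS and 43.6, 41.5, 40.1 and 43.3 CPM without. WT cells in normal M-CSF had 172, 151, 169 and 152 CPM with LPS and 72.7, 45.9, 47.3 and 40.7 CPM without. The groups did not overlap in WT cells either, and the WT libraries without LPS in low M-CSF stood within a few CPM of one another. Its log2 change was 2.43 ± 0.19 and 2.23 ± 0.18 in knockout cells in low and normal M-CSF, and 2.69 ± 0.19 and 1.64 ± 0.18 in WT cells (edgeR adjusted p at most 1.27e-09). Psmb9, the subunit that replaces Psmb6, rose by 2.14 ± 0.16 and 1.85 ± 0.15 in knockout cells and by 2.04 ± 0.16 and 1.28 ± 0.15 in WT cells (edgeR adjusted p at most 8.25e-09). Psmb8, the subunit that replaces Psmb5, rose by 2.04 ± 0.14 and 1.45 ± 0.14 in knockout cells and by 1.67 ± 0.14 and 0.90 ± 0.14 in WT cells (edgeR adjusted p at most 9.09e-07).

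The constitutive catalytic subunits had smaller log2 changes with LPS than Psmb8, Psmb9 and Psmb10 in each of the 4 comparisons, a difference that was not itself tested. Psmb6 rose in all 4 comparisons, by 0.78 and 0.89 in knockout cells in low and normal M-CSF, and by 1.38 and 0.82 in WT cells. Psmb5 changed by -0.02 and 0.53 in knockout cells and by 0.87 and 0.41 in WT cells, and did not pass in knockout cells in low or WT cells in normal M-CSF. Psmb7 passed in all but WT cells in normal M-CSF, with 0.97 and 0.59 in knockout cells and 0.83 and 0.15 in WT cells. Scaled by total counts alone, Psmb6 in knockout cells in low M-CSF turned to -0.16 and its calls in normal M-CSF were lost, as were the calls of Psmb5 and Psmb7 in WT cells in low and in knockout cells in normal M-CSF and that of Psmb7 in knockout cells in low M-CSF, while Psmb5 there passed as lower (-0.97). Of the 11 structural core subunits, 6 and 8 rose in knockout cells in low and normal M-CSF and 8 and 6 in WT cells, with medians of 0.49, 0.62, 0.87 and 0.59; Psma1 alone fell, in WT cells in low M-CSF (-0.36). Among 5 activators and maturation factors, Psme2 and Psme1, which form the PA28 cap that interferon-gamma is known to induce, rose in all 4 comparisons. Psme2 rose by 3.06, 2.06, 2.96 and 2.24, and Psme1 by 2.18, 1.19, 2.32 and 1.18, in knockout low, knockout normal, WT low and WT normal M-CSF.

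Of the class I chains, H2-K1, H2-D1 and B2m rose by smaller factors than Tap1, Tap2 and Tapbp in all 4 LPS comparisons, a difference that was not itself tested; H2-T23 is given further on. H2-K1, the classical K heavy chain, had 1407, 1506, 1626 and 1799 CPM with LPS in knockout cells in low M-CSF, against 884, 557, 924 and 600.1 CPM without. Knockout cells in normal M-CSF had 1463, 1150.4, 1744 and 1539 CPM with LPS, against 444, 619.9, 502 and 713 CPM without. The knockout libraries did not overlap, though those without LPS in low M-CSF spread more widely than most groups. WT cells in low M-CSF had 1208, 2003, 1474 and 2065 CPM with LPS and 608, 645, 737 and 712 CPM without. WT cells in normal M-CSF had 1244, 1067, 1368 and 1275 CPM with LPS and 1122, 426, 590.5 and 528 CPM without. In the last of these, library 1 without LPS stood level with the libraries given LPS, so the groups overlapped. The log2 change of H2-K1 was 1.10 ± 0.22 and 1.37 ± 0.22 in knockout cells in low and normal M-CSF and 1.32 ± 0.22 (edgeR adjusted p = 3.41e-06) in WT cells in low M-CSF. In WT cells in normal M-CSF it was 0.89 ± 0.22 (edgeR adjusted p = 0.00125), and without library 1 of the group without LPS it was 1.24 (edgeR adjusted p = 5.68e-06). Scaled by total counts alone, its changes in knockout cells in low and WT cells in normal M-CSF no longer passed (0.15 and 0.46, edgeR adjusted p = 0.561 and 0.101).

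H2-D1, the other classical heavy chain of these mice, had the smallest rise of the members called in 3 of the 4 comparisons. With LPS it changed by 0.56 ± 0.20 (edgeR adjusted p = 0.0154) in knockout cells in low M-CSF, and by 1.29 ± 0.21 (edgeR adjusted p = 2.68e-06) in normal M-CSF. In WT cells it changed by 0.86 ± 0.21 (edgeR adjusted p = 4.57e-04) in low M-CSF, and by 0.58 ± 0.20 (edgeR adjusted p = 0.0243) in normal M-CSF, where the groups overlapped. The knockout change in low M-CSF turned to -0.39 when scaled by total counts alone, was lost with libraries summed in pairs (edgeR adjusted p = 0.111), and was lost without knockout library 4 with LPS or library 2 or 4 without LPS (edgeR adjusted p = 0.0654, 0.0946 and 0.0742). The WT change in normal M-CSF was lost under both of these settings and without any of 5 libraries (3 and 4 with LPS; 2, 3 and 4 without), and was 0.84 without library 1 of the group without LPS (edgeR adjusted p = 8.47e-04). B2m, the light chain that every class I molecule shares, rose by 1.32 ± 0.17 and 1.13 ± 0.17 in knockout cells in low and normal M-CSF, and by 0.87 ± 0.17 and 0.80 ± 0.17 in WT cells (edgeR adjusted p at most 1.74e-04), with no overlap in any of the 4. By total counts alone B2m passed in knockout cells in normal M-CSF only, at 0.61, and H2-D1 in the same comparison only, at 0.76.

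**Figure D2:**
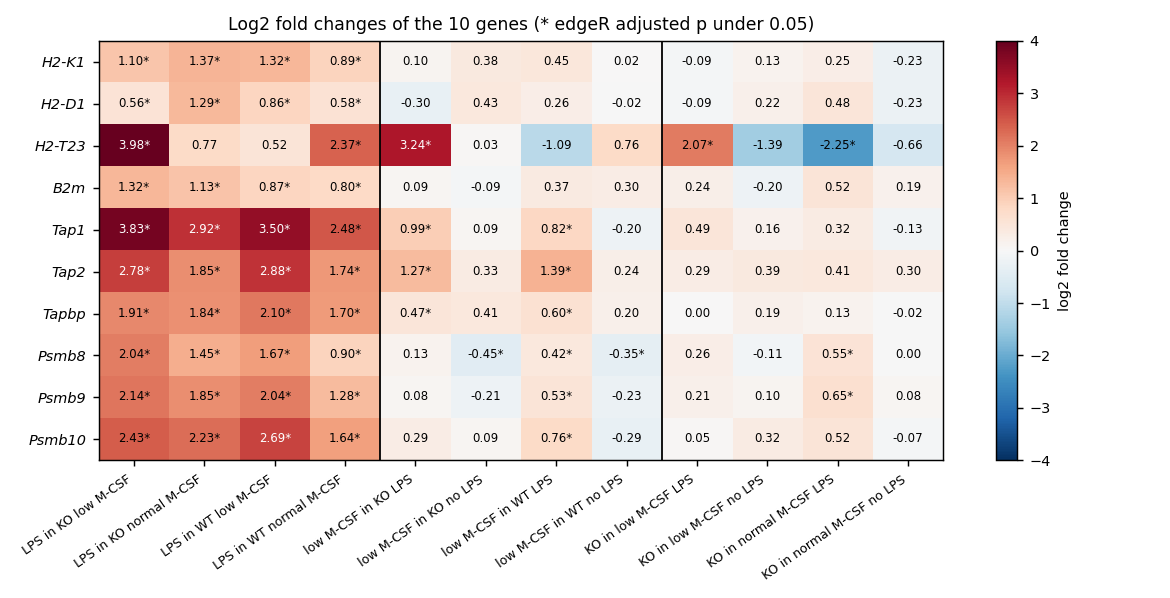
Log2 fold changes of the 10 genes (rows) in 12 comparisons (columns): LPS against no LPS, low against normal M-CSF, and knockout against WT. Red is higher, blue lower, and an asterisk marks an edgeR adjusted p under 0.05. The LPS columns are red for all 10 genes, from 0.52 to 3.98, and the knockout columns hold 4 asterisks, 2 of them for H2-T23.

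Regulators of these genes changed with LPS as well. Of 12 listed transcriptional regulators, 9 and 9 rose in knockout cells in low and normal M-CSF and 9 and 10 in WT cells. Irf1, an interferon regulatory factor of class I promoters, rose by 3.40 and 3.81 in knockout cells and by 3.37 and 3.32 in WT cells. Nlrc5, the transactivator of class I genes, rose by 4.18 and 3.43 in knockout cells and by 4.61 and 2.72 in WT cells. Nfkb1, a subunit of NF-kB, rose by 3.55 and 2.67 in knockout cells and by 3.49 and 2.58 in WT cells. Those that fell were Rfxap in WT cells in both media (-0.77 and -0.86 in low and normal) and Rfxank in knockout cells in low M-CSF (-3.01), both parts of the RFX complex that binds class I and class II promoters. Ifnb1, which encodes interferon-beta, averaged 9.18 and 8.44 CPM with LPS in knockout cells in low and normal M-CSF and 5.53 and 4.48 CPM in WT cells, against at most 0.896 CPM in any library without LPS, and it passed the test in all 4. Ifng was at 0 in all 32 libraries.

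Without LPS, 1 of the 10 members, Psmb8, differed between low and normal M-CSF, and it was lower in low M-CSF in both genotypes. In knockout cells 0 rose and 1 fell, where 26.6% of all genes rose and 21.7% fell; in WT cells 0 rose and 1 fell, beside 22.4% and 21.9%. Knockout cells had 109.6, 81.1, 90.0 and 69.8 CPM of Psmb8 in low M-CSF, against 122, 129, 106 and 122 CPM in normal M-CSF. WT cells had 98.3, 90.8, 104 and 83.9 CPM in low M-CSF and 108, 123, 109.9 and 139.5 CPM in normal M-CSF. The WT groups did not overlap, while knockout library 1 in low M-CSF stood above the lowest library in normal M-CSF. The log2 change was -0.45 ± 0.14 (edgeR adjusted p = 0.00559) in knockout cells, lost with libraries summed in pairs (edgeR adjusted p = 0.147) and without knockout library 4 in low M-CSF (edgeR adjusted p = 0.0658). In WT cells it was -0.35 ± 0.14 (edgeR adjusted p = 0.0356), and it missed the threshold under 4 other settings and in 6 of the 8 fits that left out a library (edgeR adjusted p up to 0.357). Leaving out a library also added calls. Tapbp passed as higher in knockout cells without library 2 or 4 of either medium (0.49 to 0.57), and H2-D1 in 3 of these fits; B2m passed in WT cells without library 1 in normal M-CSF (0.44). Libraries did not overlap for 1 member in knockout cells, Psmb9, and for 1 in WT cells, Psmb8, beside 44.9% and 42.2% of all genes. The other 9 members lay between -0.21 and 0.43 in knockout cells and between -0.29 and 0.76 in WT cells.

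All 3 constitutive catalytic subunits fell in low M-CSF without LPS in both genotypes. Psmb5, the chymotrypsin-like subunit, fell to 68.1 ± 20.9 CPM in low M-CSF in knockout cells, against 131 ± 25.4 CPM in normal M-CSF, a log2 change of -0.95; in WT cells it was -1.25. Psmb6, the caspase-like subunit, changed by -1.04 in knockout and -1.13 in WT cells, and Psmb7, the trypsin-like subunit, by -1.37 and -1.03. Of the 11 structural core subunits, 9 fell in knockout and 8 in WT cells, with none higher. As a description of the balance within each library, the summed CPM of Psmb8, Psmb9 and Psmb10 over that of Psmb5, Psmb6 and Psmb7 was 0.902 ± 0.0841 in low and 0.514 ± 0.0473 in normal M-CSF in knockout cells without LPS, and 1.0 ± 0.101 and 0.571 ± 0.0739 in WT cells. With LPS it was 2.75 ± 0.216 in low and 1.06 ± 0.111 in normal M-CSF in knockout cells, and 2.03 ± 0.275 and 0.894 ± 0.0741 in WT cells. This ratio of counts at transcript ends is not a ratio of proteins. Marker sums moved with the medium too. Without LPS, macrophage marker sums were 8387 to 10561 CPM in low against 4636 to 5456 CPM in normal M-CSF in knockout cells. In WT cells they were 8372 to 9694 against 4733 to 5156 CPM. Neutrophil marker sums were 144 to 207 against 51.3 to 58.3 CPM in knockout and 56.5 to 94.9 against 50.1 to 63.9 CPM in WT cells. Dendritic cell marker sums were 6.25 to 11.2 against 0.497 to 0.930 CPM in knockout and 1.28 to 7.55 against 0.0765 to 1.32 CPM in WT cells. Those of T, NK and B cells were 5.59 to 8.71 against 1.06 to 3.26 CPM in knockout cells. In WT cells they were 1.02 to 3.06 against 0.382 to 0.985 CPM. Cd4, the 1 such marker tested, rose by 2.02 in knockout and 2.15 in WT cells. The part of these cell types in these differences was not tested.

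**Figure D3:**
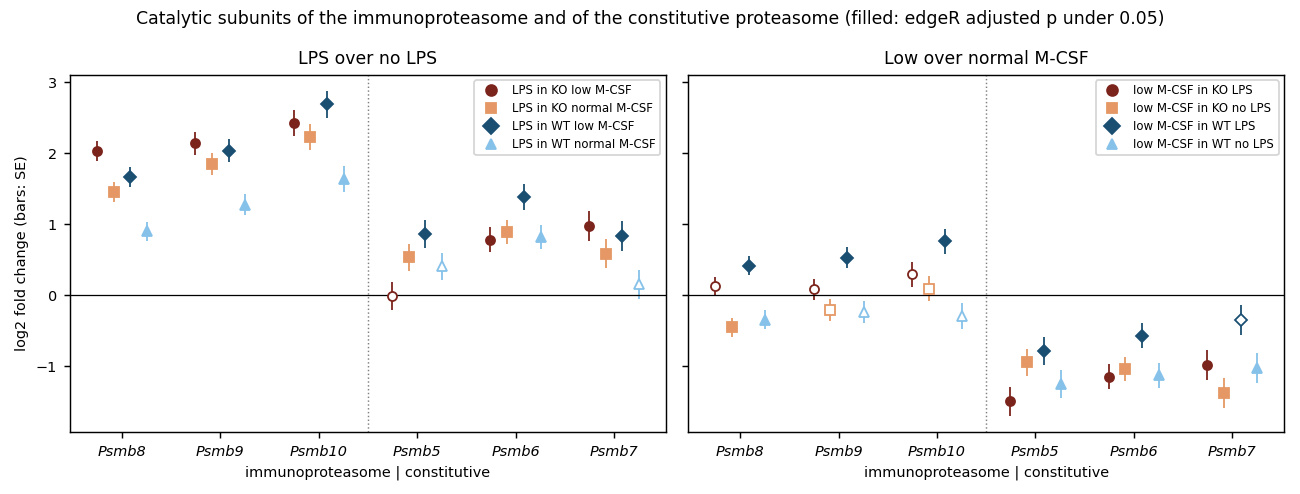
Log2 fold change ± SE of the immunoproteasome subunits Psmb8, Psmb9 and Psmb10 and the constitutive subunits Psmb5, Psmb6 and Psmb7, for LPS against no LPS (left) and low against normal M-CSF (right). Filled points passed the edgeR test (adjusted p under 0.05). In low M-CSF without LPS the constitutive subunits lie between -1.37 and -0.95 in both genotypes, and Psmb8, Psmb9 and Psmb10 between -0.45 and 0.09.

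With LPS present, peptide transport and loading genes were higher in low than in normal M-CSF in both genotypes. In knockout cells 4 members rose and 0 fell, beside 26.5% and 32.8% of all genes; in WT cells 6 rose and 0 fell, beside 21.4% and 24.2%. Libraries did not overlap for 6 members in knockout cells, beside 50.8% of all genes in either direction, and for 7 in WT cells, beside 38.6%. Tap2 had the largest change of the 3 transport and loading genes in both genotypes. Knockout cells with LPS had 73.8, 191, 151 and 154 CPM of Tap2 in low M-CSF, against 46.1, 68.2, 69.2 and 53.1 CPM in normal M-CSF. WT cells with LPS had 99.1, 145, 106 and 116 CPM in low and 46.0, 43.4, 49.3 and 39.3 CPM in normal M-CSF. Knockout library 1 in low M-CSF was the lowest of its group, yet neither genotype's libraries overlapped. The log2 change of Tap2 was 1.27 ± 0.20 (edgeR adjusted p = 1.87e-06) in knockout and 1.39 ± 0.20 (edgeR adjusted p = 1.06e-06) in WT cells. That of Tap1, from the library values above, was 0.99 ± 0.19 (edgeR adjusted p = 3.10e-05) in knockout and 0.82 ± 0.19 (edgeR adjusted p = 5.73e-04) in WT cells.

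Tapasin had 743, 712, 771 and 856 CPM in low and 579, 505, 642 and 494 CPM in normal M-CSF in knockout cells with LPS. WT cells with LPS had 629, 933, 625 and 889 CPM of Tapbp in low and 537, 443, 549 and 505 CPM in normal M-CSF. The libraries did not overlap in either genotype. Tapbp changed by 0.47 ± 0.18 (edgeR adjusted p = 0.024) in knockout and 0.60 ± 0.18 (edgeR adjusted p = 0.00698) in WT cells; both calls were lost with libraries summed in pairs (edgeR adjusted p = 0.183 and 0.108), and the knockout call without knockout library 4 in low or library 2 or 4 in normal M-CSF (edgeR adjusted p = 0.0518, 0.0542 and 0.0574). Psmb10, Psmb9 and Psmb8 passed in WT cells, with 0.76 ± 0.18 (edgeR adjusted p = 6.18e-04) for Psmb10, 0.53 ± 0.15 for Psmb9 (edgeR adjusted p = 0.0045) and 0.42 ± 0.14 for Psmb8 (edgeR adjusted p = 0.0111). With libraries summed in pairs Psmb9 and Psmb8 were lost (edgeR adjusted p = 0.0811 and 0.192), and Psmb8 without a filter on low counts as well (0.0699). In knockout cells the same 3 were 0.29 ± 0.18, 0.08 ± 0.15 and 0.13 ± 0.13 and did not pass, and the difference between the genotypes did not pass for any of them (edgeR adjusted p = 0.262, 0.208 and 0.38). H2-K1, H2-D1 and B2m were at 0.10 ± 0.22, -0.30 ± 0.20 and 0.09 ± 0.16 in knockout and 0.45 ± 0.22, 0.26 ± 0.20 and 0.37 ± 0.16 in WT cells, none past the threshold. Calls in this comparison depended on the scaling and the tool. With RLE size factors Psmb10 passed in knockout cells (0.46, edgeR adjusted p = 0.0224), and H2-K1 (0.55, edgeR adjusted p = 0.038) and B2m (0.48, edgeR adjusted p = 0.0167) in WT cells. DESeq2 called the same 3 (adjusted p = 0.014, 0.0333 and 0.00691) and Psmb8 in knockout cells (0.30, adjusted p = 0.0134). H2-K1 and B2m also passed in WT cells with only the groups compared (edgeR adjusted p = 0.0477 and 0.0315). With total counts alone the median of all genes moved to -0.70 in knockout and -0.56 in WT cells, and the calls kept in the same direction were Tap2 in both genotypes (0.72 and 0.93) and H2-T23 in knockout cells (2.67). Over all genes tested in knockout cells 2977 genes were higher and 3683 lower (by total counts 1647 and 5522, with RLE 3438 and 3099), and in WT cells 2409 genes were higher and 2723 lower (by total counts 1167 and 4891, with RLE 2809 and 2359). By total counts 4 members passed as lower in knockout cells, H2-D1 (-0.85), Psmb8 (-0.42), Psmb9 (-0.47) and B2m (-0.47), and H2-T23 did in WT cells (-1.55). Of these Psmb8, Psmb9 and B2m had the other sign with TMM, as did Tapbp (-0.08), H2-K1 (-0.45) and Psmb10 (-0.26) in knockout cells, and Psmb8 (-0.05), H2-D1 (-0.19), B2m (-0.087) and H2-K1 (-0.0072) in WT cells; the last 7 of these values did not pass by total counts.

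The LPS change itself was larger in low than in normal M-CSF for several members, when that difference was tested directly. In knockout cells the difference passed for 5 of the 10 (4 larger, 1 smaller), beside 13.3% and 22% of all genes; in WT cells it passed for 5, all larger, beside 10.7% and 12.8%. In WT cells these were Tap2 (1.15 ± 0.29, edgeR adjusted p = 0.00401), Psmb10 (1.05 ± 0.25), Tap1 (1.02 ± 0.27), Psmb8 (0.76 ± 0.19) and Psmb9 (0.76 ± 0.22). In knockout cells Tap2 (0.93 ± 0.29, edgeR adjusted p = 0.0115), Tap1 (0.90 ± 0.27) and Psmb8 (0.58 ± 0.19) were larger, together with H2-T23 (values with the other results of that gene). H2-D1 was smaller there, at -0.73 ± 0.29 (edgeR adjusted p = 0.0463), and that call was lost under 4 other settings and without any of 10 libraries, with edgeR adjusted p up to 0.222. With libraries summed in pairs, the call left among these was H2-T23 in knockout cells; with total counts alone Tap2 and Psmb10 stayed past the threshold in WT cells, at 0.81 and 0.73, and H2-T23 and H2-D1 in knockout cells, and H2-T23 then passed as smaller in WT cells (-2.17). Psmb8 in knockout cells was also lost without a filter on low counts (edgeR adjusted p = 0.0959) and without knockout library 4 in low M-CSF without LPS (edgeR adjusted p = 0.0561). Neutrophil marker sums were also higher in low than in normal M-CSF with LPS, at 219 to 376 CPM in knockout and 173 to 200.4 CPM in WT cells, against 84.5 to 137 and 101 to 119 CPM in normal M-CSF with LPS. Dendritic cell marker sums were 8.25 to 18.3 and 9.29 to 14.9 CPM in low, and 2.16 to 3.71 and 3.81 to 5.07 CPM in normal M-CSF with LPS. Macrophage marker sums were 8239 to 8803 and 6378 to 9017 CPM in low, and 6164 to 6825 and 5537 to 6339 CPM in normal M-CSF with LPS. The part of any of these cell types was not tested.

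**Figure D4:**
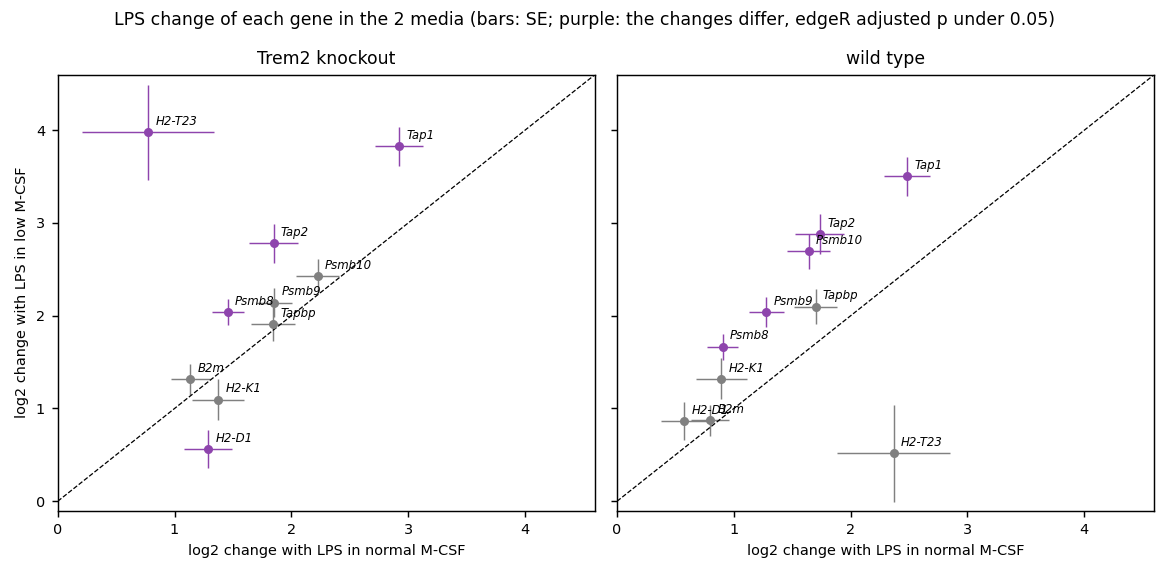
Log2 change with LPS in normal M-CSF (x axis) against low M-CSF (y axis) for the 10 genes, in knockout cells (left) and WT cells (right). The dashed line marks equal changes, and purple marks genes whose LPS change differed between media (edgeR adjusted p under 0.05). In WT cells Tap1, Tap2, Psmb8, Psmb9 and Psmb10 lie above the line.

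Among related genes, Psme1 rose in low M-CSF in all 4 comparisons, by 1.54 and 0.55 in knockout cells with and without LPS and by 1.63 and 0.48 in WT cells. Of the 12 regulators, 10 and 9 rose in knockout cells with and without LPS, and 9 and 4 in WT cells. Irf8, a factor of myeloid cells, rose by 1.72 and 1.66 in knockout and 1.23 and 1.57 in WT cells, with and without LPS. Nlrc5 moved with the medium in opposite directions in WT cells, at 1.17 with LPS and -0.73 without. The genes whose 8 group means were most like each set of members were Egr2, Slfn2 and Gpr31b for the class I chains (r = 0.994, 0.992 and 0.989), Gbp2, Cfb and Il15 for transport and loading (0.999, 0.999 and 0.998), and Nt5c3, Phf11b and Inpp5b for the immunoproteasome (0.997, 0.996 and 0.995), out of 8743 genes. The 8743 were genes outside the members and lists with a mean of 10 CPM or more in any group. Each set's profile is the mean of its members' centred log2 levels. That of the class I chains includes H2-T23, a low-count gene whose group means ran from 2.04 to 34.7 CPM. This relative range is wider than that of H2-K1 (569.5 to 1687 CPM), so H2-T23 weighs heavily in the profile. The correlations describe 8 means that share the LPS contrast.

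No member passed the test between the genotypes without LPS. In normal M-CSF without LPS none of the 10 passed, where 1.86% of all genes were called, and libraries of knockout and WT cells overlapped for all 10, beside 8.58% of all genes without overlap. At an unadjusted p under 0.05 the count in that comparison was 0, and DESeq2 called 0. In low M-CSF without LPS none passed either, beside 16.7% called and 21.7% without overlap over all genes; 1 had an unadjusted p under 0.05, and DESeq2 called 1. That gene was H2-T23 in both counts, at -1.39 ± 0.51 (edgeR adjusted p = 0.056), with adjusted p = 0.0329 by DESeq2; it passed with no filter (0.0148) and total counts (0.0454) as well. The 95% intervals of the log2 difference in low M-CSF were -0.31 to 0.58 for H2-K1, -0.54 to 0.13 for B2m, -0.23 to 0.56 for Tap1 and -0.21 to 0.42 for Psmb9. In normal M-CSF they were -0.67 to 0.21, -0.15 to 0.52, -0.52 to 0.27 and -0.23 to 0.39 for the same genes.

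With LPS in normal M-CSF, the immunoproteasome genes Psmb8 and Psmb9 were higher in knockout than in WT cells, and H2-T23 was lower. Of the 10 members 2 were higher and 1 lower, beside 1.98% and 2.05% of all genes, and 7 did not overlap, beside 14.3%. Over all genes 223 genes were higher and 231 lower (by total counts 133 and 361). Psmb9 had 96.1, 105, 116 and 108 CPM in knockout cells, against 62.3, 62.6, 73.6 and 72.2 CPM in WT cells. Psmb8 had 315, 329, 328 and 342 CPM in knockout cells and 229, 220.0, 237 and 211 CPM in WT cells. For both subunits every knockout library lay above every WT library. The log2 difference was 0.65 ± 0.15 (edgeR adjusted p = 0.0072) for Psmb9, and 0.55 ± 0.13 (edgeR adjusted p = 0.0119) for Psmb8. Both were lost with libraries summed in pairs (edgeR adjusted p = 0.317 and 0.518); Psmb8 was also lost with total counts alone (0.0588), with no filter on low counts (0.0723) and without WT library 2 (0.0541). Psmb10 had 236, 218, 246 and 223 CPM in knockout and 172, 151, 169 and 152 CPM in WT cells, again without overlap, with a log2 difference of 0.52 ± 0.18 (edgeR adjusted p = 0.0895). B2m had 3725, 3374, 4483 and 3890.4 CPM in knockout and 2651, 2415, 2868 and 2824 CPM in WT cells. Its groups did not overlap, and the difference was 0.52 ± 0.17 (edgeR adjusted p = 0.0636).

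H2-D1 had 969.5, 811, 1181 and 1126 CPM in knockout cells with LPS in normal M-CSF, against 708, 638, 807 and 778 CPM in WT cells, just without overlap, with a log2 difference of 0.48 ± 0.20 (edgeR adjusted p = 0.209). B2m, Psmb10 and H2-D1 passed when only the 2 groups compared were fitted, and B2m and Psmb10 with DESeq2 (adjusted p = 0.0192 and 0.0387). H2-K1, Tap2 and Tapbp overlapped between the genotypes, at 0.25 ± 0.22, 0.41 ± 0.20 and 0.13 ± 0.18, and Tap1 did not overlap but did not pass (0.32 ± 0.19, edgeR adjusted p = 0.437). Whether the LPS change itself differed between the genotypes in normal M-CSF did not pass for any member, beside 0.534% of all genes; it was 0.55 ± 0.19 (edgeR adjusted p = 0.217) for Psmb8, and 0.57 ± 0.21 for Psmb9. At an unadjusted p under 0.05 the count of members was 5, and DESeq2 called 1, Psmb8. The summed neutrophil markers were 84.5 to 137 CPM in knockout and 101 to 119 CPM in WT cells in this condition, ranges that overlap.

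With LPS in low M-CSF Psmb8, Psmb9 and Psmb10 did not pass between the genotypes with edgeR, and Psmb8 did with DESeq2. Of the 10 members 1 was higher in knockout cells and 0 lower, beside 8.2% and 10.9% of all genes, and 3 did not overlap, beside 15.6%. Over all genes 922 genes were higher and 1225 lower (by total counts 563 and 1926). Psmb8 had 358, 367, 359 and 353 CPM in knockout and 291, 298, 306 and 304 CPM in WT cells, with no overlap and a log2 difference of 0.26 ± 0.14 (edgeR adjusted p = 0.175). DESeq2 gave 0.33 for Psmb8 (adjusted p = 0.0195), and 0.48 for the genotype difference in its LPS change (adjusted p = 0.0183). Psmb9 and Psmb10 were at 0.21 ± 0.15 and 0.05 ± 0.18. Tap1 did not overlap either, from the library values above, with 0.49 ± 0.19 (edgeR adjusted p = 0.067); it passed with DESeq2 and with RLE size factors (adjusted p = 0.0186 and 0.0347). The 1 member called was H2-T23, described next, and neutrophil marker sums were 219 to 376 CPM in knockout and 173 to 200.4 CPM in WT cells in this condition, a difference whose part was not tested. With edgeR the genotype difference in the LPS change in low M-CSF passed for H2-T23 alone, beside 16% of all genes, and so did that in the medium's change with LPS, beside 5.49%; without LPS the genotype difference in the medium's change passed for none, beside 4.62%.

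H2-T23 encodes Qa-1, the nonclassical class I chain that presents leader peptides of other class I chains to NK cells. It was the least counted member, at 3 to 239 reads per library. With LPS in low M-CSF, knockout cells had 46.6, 17.0, 61.2 and 14.1 CPM, against 11.3, 7.44, 9.70 and 4.71 CPM in WT cells. With LPS in normal M-CSF, knockout cells had 3.71, 2.22, 3.86 and 4.82 CPM, against 9.61, 26.5, 7.80 and 28.0 CPM in WT cells. The genotypes did not overlap in either medium, and the order reversed: knockout above WT in low, below in normal M-CSF. Without LPS, knockout cells in low M-CSF had 0.456, 2.69, 1.10 and 3.91 CPM and WT cells 6.00, 3.33, 10.7 and 3.36 CPM. Without LPS in normal M-CSF, knockout cells had 2.17, 1.06, 2.90 and 2.33 CPM and WT cells 3.73, 1.46, 5.97 and 2.53 CPM. The genotypes overlapped in both of these. Within several groups, libraries 1 and 3 stood together and apart from 2 and 4: above them in knockout cells with LPS in low M-CSF, below them in WT cells with LPS in normal M-CSF. The log2 difference between the genotypes with LPS was 2.07 ± 0.50 (edgeR adjusted p = 0.00348) in low M-CSF, and -2.25 ± 0.51 (edgeR adjusted p = 0.00614) in normal M-CSF.

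The genotype difference in the medium's change of H2-T23 with LPS was 4.33 ± 0.72 (edgeR adjusted p = 5.62e-04), and that in its LPS change in low M-CSF 3.46 ± 0.72 (edgeR adjusted p = 0.00131). Its LPS change was 3.98 ± 0.51 (edgeR adjusted p = 1.85e-08) in knockout cells in low M-CSF, but 0.77 ± 0.56 (edgeR adjusted p = 0.279) in normal M-CSF. In WT cells the LPS change was 0.52 ± 0.53 (edgeR adjusted p = 0.405) in low M-CSF, and 2.37 ± 0.48 (edgeR adjusted p = 1.35e-04) in normal M-CSF. The LPS rise of H2-T23 thus passed in low M-CSF in knockout cells and in normal M-CSF in WT cells, and in WT cells the difference between media was -1.85 ± 0.71 (edgeR adjusted p = 0.0524), past the threshold with no filter (0.0123), only the groups compared (0.0407) and total counts (0.0153). The WT change with LPS in low M-CSF turned to -0.27 with total counts. The low against normal M-CSF change with LPS was 3.24 ± 0.52 (edgeR adjusted p = 1.72e-06) in knockout cells, and -1.09 ± 0.50 (edgeR adjusted p = 0.0744, and 0.0263 with no filter) in WT cells. In knockout cells its LPS change was larger in low than in normal M-CSF by 3.21 ± 0.75 (edgeR adjusted p = 0.00115). With libraries summed in pairs, neither genotype difference passed (edgeR adjusted p = 0.0719 in low and 0.18 in normal M-CSF), nor did the differences of changes (0.105 for the medium, 0.0733 for LPS). Words of 50 bases were taken from the last 500 bases of its longest protein-coding GENCODE transcript. Of these words 38.1% also occur in GENCODE transcripts of 83 other genes, so its counts are uncertain. For H2-D1 the share was 9.53%, for H2-K1 0.443%, and for the other 7 members 0.

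Of the class I chains outside the 10 members, H2-T10 and H2-T24 were higher in knockout than in WT cells in all 4 conditions. The list fixed for them held 20 genes, of which 19 were in the table, 7 had no count in any library and 8 passed the filter, so counts over the 8 describe the genes with counts. H2-T10, a class I-like chain of the T region (chr17:36115871-36121444) recognised by some gamma delta T cells, averaged 29.8 ± 5.14 and 9.44 ± 2.73 CPM in knockout cells in low M-CSF with and without LPS, against 5.50 ± 4.62 and 1.01 ± 0.512 CPM in WT cells. In normal M-CSF with and without LPS it averaged 18.7 ± 1.50 and 8.38 ± 1.27 CPM in knockout and 4.32 ± 1.06 and 1.02 ± 0.484 CPM in WT cells. WT libraries without LPS held 2 to 14 reads of H2-T10 each, so its fold there is imprecise. The log2 difference was 2.47 and 3.18 in low M-CSF with and without LPS and 2.14 and 3.11 in normal M-CSF (edgeR adjusted p at most 1.10e-04). H2-T24, also of the T region (chr17:36003471-36020800), was higher as well, by 1.50, 1.29, 1.34 and 1.17 in the same order; its calls in normal M-CSF were lost with libraries summed in pairs.

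H2-M2 (chr17:37480851-37483554), a nonclassical chain of the M region, was lower in knockout cells in 3 conditions, with log2 differences of -1.61 and -2.42 in low M-CSF with and without LPS and -1.04 in normal M-CSF with LPS, and was at -0.76 in normal M-CSF without LPS; the call in normal M-CSF with LPS was lost with libraries summed in pairs and without any of 5 libraries. H2-M3 (chr17:37270234-37274485), which presents formylated peptides, was lower without LPS, with log2 differences of -0.85 in low and -0.89 in normal M-CSF, and did not pass with LPS, at -0.47 and -0.51; both calls were lost with libraries summed in pairs. H2-Q10 passed in low M-CSF without LPS alone (1.68). In all, 2 of the 8 were higher and 1 lower in knockout cells in low M-CSF with LPS, 3 higher and 2 lower there without LPS, and 2 higher and 1 lower in each normal M-CSF condition. Several of the H2-Q and H2-T genes are close copies of one another, and H2-T22 is listed at 0 in all libraries. The counting of shared reads is not given in the sources used here, so which copy a read of such a gene came from is uncertain. Shared sequence was not measured for these 8 genes. The 6 of the 8 that lie on chromosome 17 are 10.9 to 13 Mb from Trem2. Whether the genotypes differ in chromosome 17 sequence beyond the deleted gene, in these genes or in the members there, was not tested. Neutrophil marker sums were 144 to 207 CPM in knockout and 56.5 to 94.9 CPM in WT cells in low M-CSF without LPS. In normal M-CSF without LPS they were 51.3 to 58.3 and 50.1 to 63.9 CPM. Sums of T, NK and B cell markers without LPS were 5.59 to 8.71 and 1.02 to 3.06 CPM in low M-CSF, and 1.06 to 3.26 and 0.382 to 0.985 CPM in normal M-CSF. Cd4, the 1 such marker tested, was higher in knockout cells in both media without LPS and in low M-CSF with LPS (edgeR adjusted p at most 0.0337). It did not pass in normal M-CSF with LPS. The part of these cells in these differences was not tested. With LPS, 6 of the 8 rose and Mr1, which presents vitamin B metabolites, fell in all 4 comparisons; of these 8 H2-M2 had the largest rise, by 5.86 and 4.94 in knockout cells in low and normal M-CSF and 5.05 and 5.22 in WT cells.

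**Figure D5:**
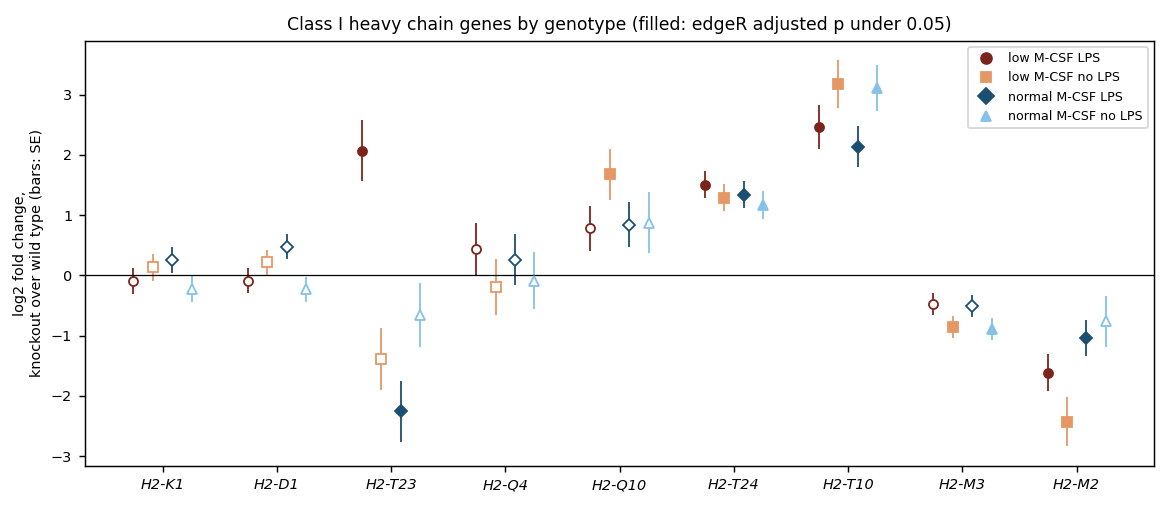
Log2 difference between knockout and WT cells ± SE for 9 class I heavy chains in the 4 conditions. Filled points passed the edgeR test (adjusted p under 0.05). H2-T10 and H2-T24 lie above 0 in all 4 conditions, H2-T23 changes sign between the media with LPS, and H2-K1 and H2-D1 lie between -0.23 and 0.48.

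Of the 12 regulators, none passed between the genotypes in normal M-CSF without LPS, 1 was higher in knockout cells there with LPS, and 2 were higher in low M-CSF in each LPS state. They were Irf2 (0.79) in normal M-CSF with LPS, and Rela (0.74) and Irf8 (0.67) in low M-CSF without LPS. Irf8 was among those higher in low M-CSF with LPS as well (0.71). Of the 3 constitutive catalytic subunits, Psmb7 was higher in knockout cells with LPS in normal M-CSF (0.73), a call lost in every fit that left out a library of the 2 groups, and Psmb5 lower with LPS in low M-CSF (-0.64), a call lost with libraries summed in pairs.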

How the data were processed

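Per the labels' protocols, mRNA was caught on oligo-dT beads, cDNA was primed with barcoded oligo-dT, samples were pooled, and 12 PCR cycles gave strand-specific libraries that read the 3′ ends of transcripts, with no molecular identifiers mentioned. The authors deposited 1 table of raw counts per gene. STAR, HTSeq, DESeq2 and mm10 are named, without versions, in the submitters' processing notes; the annotation and the strand setting are not given in the sources used here. Symbols came from the Entrez identifiers, of which 96.3% matched, with 99.5% of the counts.

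The counts were fitted with edgeR 4.0.16 (R 4.3.3) with a mean for each of 8 groups, TMM scaling and filterByExpr at its defaults, which kept 11244 of 24885 genes. Each contrast had a two-sided quasi-likelihood F test, with p adjusted by Benjamini-Hochberg over all genes tested, with a threshold of 0.05. CPM are TMM-scaled, and fitted fold changes use a prior count of 0.125. The method was tested on simulated data.

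All 10 members were named in every comparison. Of each list of related genes, up to 3 with the smallest adjusted p and any gene called against the rest were named; Psmb5, Psmb6, Psmb7, the chains by genotype and the regulators called by genotype were given in full, except for items that are not reported here. Members and lists were chosen with earlier results of these data known. A count of 3, the largest that an observed 0 allows at 95% confidence, is 0.163 to 1.46 CPM per library; such limits and all intervals of counts cover counting error only.

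Replicate numbers are shared between groups. Over 112 pairs of same-numbered libraries the correlation of deviations from the group means was -0.524 to 0.489 (median 0.004), and 44 were over 0.1, so the numbers were not taken to pair the libraries in general. In 2 of the comparisons every pair was over 0.1: LPS in WT cells in normal M-CSF (0.146 to 0.478), and knockout against WT in normal M-CSF with LPS (0.107 to 0.308). Every pair was negative in low against normal M-CSF in knockout cells without LPS (-0.524 to -0.456) and in WT cells with LPS (-0.299 to -0.126). The same held for LPS in knockout cells in normal M-CSF (-0.317 to -0.0837), and for knockout against WT there without LPS (-0.457 to -0.0591). A link between groups under other numbers was not tested, and a block by replicate number cannot take it up. Alternatives tried were RLE size factors, total counts alone, no filter, a replicate block, only the groups compared, libraries 1 with 3 and 2 with 4 summed in pairs, DESeq2 1.42.0, and leaving out each library in turn.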

Additional observations from a re-analysis of the deposited data

Results flagged for a closer look

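Of 80 sets of 4 libraries (10 members in 8 groups), 0 held a library beyond Dixon's 95% critical value. For 4 independent values chance alone gives about 1 in 20. Libraries 1 and 3, and 2 and 4, were alike in most groups, so this check can miss an odd library. The values that stood out are differences between 2 groups' effects, each tested as an interaction term in the edgeR fit and given on the log2 scale. Genotype by treatment, H2-T23, the Qa-1 chain, is the member that passed: its LPS change in low M-CSF was larger in knockout than in WT cells by 3.46, and its change between low and normal M-CSF with LPS was larger by 4.33. In knockout cells the LPS change was larger in low than in normal M-CSF by 3.21 for H2-T23, 0.90 for Tap1, 0.93 for Tap2 and 0.58 for Psmb8, and it was smaller for H2-D1, at -0.73. In WT cells it was larger in low M-CSF by 1.02 for Tap1, 1.15 for Tap2, 0.76 for Psmb8, 0.76 for Psmb9 and 1.05 for Psmb10. With libraries 1 and 3, and 2 and 4, summed in pairs, H2-T23 between the media in knockout cells was the one of these 12 that still passed.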

How the results depend on the processing

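Over the alternatives, 5364 values of single genes kept their side of the threshold, 66 newly passed, 137 no longer passed, and 7 changed sign and passed in 1 of the fits. Of the 5364, 117 that passed in neither fit also changed sign, 27 of them with total counts alone and 67 when a library was left out. The 7 arose with total counts alone, and their causes were not tested: with LPS in knockout cells in low M-CSF, H2-D1 (-0.39) and Psmb6 (-0.16); between low and normal M-CSF with LPS, Psmb8 in WT cells (-0.048) and B2m (-0.47), Tapbp (-0.078), Psmb8 (-0.42) and Psmb9 (-0.47) in knockout cells. Depth limits H2-T23 most, with 3 to 239 reads per library.

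Counts of members called moved by over 1.5 times as follows. With libraries summed in pairs, which leaves 2 samples a group, the count was 0 against 1 for low M-CSF without LPS in knockout and in WT cells, and 3 against 6 for low M-CSF with LPS in WT cells. It was also 0 against 3 for knockout against WT with LPS in normal M-CSF, 0 against 1 for the same in low M-CSF, and 0 against 1 for both genotype interactions that had passed. For the difference in LPS change between media it was 1 against 5 in knockout cells and 0 against 5 in WT cells. With DESeq2 it was 2 against 1 for low M-CSF without LPS in knockout cells, 5 against 3 and 3 against 1 for knockout against WT with LPS in normal and low M-CSF, 1 against 0 in low M-CSF without LPS, and 1 against 0 and 2 against 1 for the genotype difference in the LPS change in normal and low M-CSF. With total counts alone it was 2 against 6 for low M-CSF with LPS in WT cells, 1 against 0 for knockout against WT in low M-CSF without LPS, and 2 against 5 in knockout and 3 against 5 in WT cells for the difference in LPS change between media. With RLE size factors, with no filter and with only the groups compared, the count for low M-CSF without LPS in WT cells was 0 against 1. No filter also gave 1 against 0 for knockout against WT in low M-CSF without LPS, RLE 2 against 1 for the same with LPS, and only the groups compared 6 against 3 with LPS in normal M-CSF. Leaving out 1 library gave 0 to 2 for low M-CSF without LPS in WT cells, 1 to 3 in knockout cells, and 0 to 1 for knockout against WT in low M-CSF without LPS.

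Replicate numbers are shared across groups. A replicate block gave 10 members for LPS in WT cells in normal M-CSF and 3 for knockout against WT there with LPS, the comparisons in which same-numbered libraries deviated together, as did the fit without a block. Elsewhere the block gave 7 against 6 for low M-CSF with LPS in WT cells, and 4 against 5 in knockout and 6 against 5 in WT cells for the difference in LPS change between media.

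Over all genes, calls between genotypes were 454 with LPS in normal M-CSF, against 866 with only the groups compared, 687 with DESeq2, 43 in pairs and 222 to 302 without knockout library 3 or 4 or WT library 2 or 4. In low M-CSF with LPS they were 2147, against 1037 with only the groups compared and 485 in pairs, and without LPS 1879, against 621 in pairs. In normal M-CSF without LPS they were 209, against 346 with DESeq2 and 39 in pairs. In pairs, LPS calls in WT cells in normal M-CSF were 2594 against 4061, and calls of low M-CSF were 3539 against 5422 in knockout and 2969 against 4983 in WT cells without LPS, and 3327 against 5132 in WT cells with LPS. In pairs the difference in LPS change between media was called for 1702 genes against 3971 in knockout and 853 against 2649 in WT cells. Genotype differences in the LPS change in low M-CSF were 1800 (845 higher, 955 lower), against 959 with only the groups compared and 91 in pairs. The split was 1039 higher and 671 lower with RLE, 1209 and 849 with DESeq2, and 626 and 1542 with total counts. In normal M-CSF that count was 60 (37 higher, 23 lower), against 96 with total counts (34 higher, 62 lower), 102 with no filter, 120 with only the groups compared, 210 with DESeq2, 0 in pairs and 30 to 39 in 7 of the 16 fits that left out a library. The genotype difference in the medium's change with LPS was called for 617 genes (247 higher, 370 lower), against 962 with DESeq2, 1 in pairs, 322 to 381 in 5 fits that left out a library, and 309 higher and 268 lower with RLE; without LPS it was 519, against 97 in pairs. The difference in LPS change between media split into 1494 higher and 2477 lower in knockout cells, against 1859 and 1828 with RLE, 1966 and 1989 with DESeq2 and 855 and 4396 with total counts, and in WT cells into 1206 and 1443, against 658 and 2688 with total counts.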
